A study of Mus musculus with 10 samples.

Results

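The fibrillin, LTBP and elastic fibre genes examined here are Fbn1, Fbn2, Ltbp1, Ltbp2, Ltbp3, Ltbp4, Eln, Fbln1, Fbln5 and Mfap4, chosen by symbol from a table of read counts for 20579 genes. Rows were found for 9 of these 10 genes, and Fbln5 was not analysed here. Fibrillins polymerise into microfibrils, on which tropoelastin, the product of Eln, is laid down and cross-linked into elastic fibres. The latent TGF-beta binding proteins (LTBPs) are relatives of the fibrillins. Most of them tether the inactive complex of TGF-beta to the matrix, so microfibrils also hold a store of this growth factor. In the gut wall these proteins are known as products of smooth muscle cells and fibroblasts, not of the epithelium.

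The 10 libraries came from cells of the mouse intestine of E18.5 embryos, sorted for green fluorescent protein driven by the Hopx promoter. Hopx is a homeodomain protein used as a marker of slow-cycling crypt cells. There were 5 p57KO libraries, which lack the cyclin-dependent kinase inhibitor p57Kip2 encoded by Cdkn1c, and 5 p57WT libraries. All animals of both genotypes carried the Hopx reporter and had a strain label of C57BL6/J / 129S4, and the sources used here do not say which part of Cdkn1c is deleted. The design text counts 5 intestines per genotype, so each library was taken as 1 animal, although no animal identifiers were given, and p-values measure the spread between these libraries. Each label also carries a number of unstated meaning. It is 607 for p57KO 1, p57KO 2 and p57WT 1, 608 for p57KO 3 to 5 and 740 for p57WT 2 to 5, so only 607 holds both genotypes.

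Total counts were between 10684179 and 26809231 in p57KO and between 8037887 and 25527896 in p57WT libraries. Levels are given as CPM, counts relative to the library total after TMM scaling. Cdkn1c, which checks the genotype labels, was between 0.153 and 2.06 CPM in p57KO and between 151 and 458 CPM in p57WT. Hopx, whose promoter drives the sorted reporter, was between 127 and 199 CPM in p57KO and between 60.4 and 78.1 CPM in p57WT. The label names intestinal stem cells, but every library also held RNA of other cell types. The 10 smooth muscle markers (for example Myh11) summed to between 4240 and 30300 CPM in p57KO and between 41400 and 90900 CPM in p57WT, and all 10 were lower in p57KO. Of 12 fibroblast markers 7 were analysed. They summed to between 98 and 1220 CPM in p57KO and between 2490 and 8450 CPM in p57WT, and 6 of them were lower. The 12 epithelial markers summed to between 8550 and 16800 CPM in p57KO and between 2940 and 7130 CPM in p57WT, and all 12 were higher. No analysed marker of these lists was at 0 in all libraries of a genotype. Ribosomal RNA repeat features took 9.47% of counts in p57KO 5 and at most 0.435% in the other p57KO libraries, against 0.0301% in p57WT 2 and between 14.9% and 17% in the other p57WT libraries.

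The promoters of 3 of the genes are shown because these genes span the range of differences between genotypes: Ltbp2 is among those with the largest fold changes, Ltbp1 has the smallest of the LTBPs, and Fbln1 did not pass the test. Each line gives the 250 bases before the gene's start in RefSeq, build GRCm38.p6, read 5′ to 3′ on the gene's strand. Capitals mark GGGCGG (GC box) and CAGAC (SMAD box) on either strand, and no matches overlap.
Ltbp2, chr12:84876492-84876741, minus strand: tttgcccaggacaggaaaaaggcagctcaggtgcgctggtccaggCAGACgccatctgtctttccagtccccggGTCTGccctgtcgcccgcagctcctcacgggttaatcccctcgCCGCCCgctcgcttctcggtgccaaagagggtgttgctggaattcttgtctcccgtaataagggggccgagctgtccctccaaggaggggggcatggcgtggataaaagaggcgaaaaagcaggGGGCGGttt
Ltbp1, chr17:75005279-75005528, plus strand: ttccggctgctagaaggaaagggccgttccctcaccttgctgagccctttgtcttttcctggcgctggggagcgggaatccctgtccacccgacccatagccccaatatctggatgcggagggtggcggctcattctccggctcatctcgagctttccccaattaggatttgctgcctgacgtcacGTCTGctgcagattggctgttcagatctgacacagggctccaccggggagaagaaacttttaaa
Fbln1, chr15:85205699-85205948, plus strand: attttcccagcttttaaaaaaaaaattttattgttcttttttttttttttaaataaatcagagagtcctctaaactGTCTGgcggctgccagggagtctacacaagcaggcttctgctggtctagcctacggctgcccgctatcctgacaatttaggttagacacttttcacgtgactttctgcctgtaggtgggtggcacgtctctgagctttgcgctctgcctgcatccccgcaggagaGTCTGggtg
Ltbp2 has 2 GC boxes and 2 SMAD boxes in this window, Ltbp1 has 1 SMAD box and Fbln1 has 2 SMAD boxes. Windows were found for 6 of the 9 genes. Among the other 3, Fbn1 has 1 GC box, Ltbp4 has 3 GC boxes and Ltbp3 has 1 SMAD box. Of 27025 such windows, 32.9% hold a GC box and 42.1% a SMAD box. No TATA box (TATAAA, in 13.0% of windows) and no CArG box, the motif bound by serum response factor (in 1.40%), was found in the 6 windows. A match is a description of letters and not of binding.

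The genotypes were compared to ask how the RNA of Hopx-sorted cells differs without p57Kip2. Of the 9 genes, 8 were lower in p57KO libraries and 0 were higher, while 1, Fbln1, did not pass. A gene passed when its p from edgeR's quasi-likelihood test, adjusted by Benjamini-Hochberg across the 16710 genes tested, was below 0.05. Over all genes tested, 36.5% were called, 17.2% lower and 19.3% higher. The median log2 fold change of the 9 genes was -2.89, against 0.08 over all genes tested. For the same 8 genes every p57KO library was below every p57WT library, and 12.7% of all genes tested showed that pattern. In bulk RNA, fewer cells of a type and less RNA per cell cannot be told apart.

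**Figure D1:**
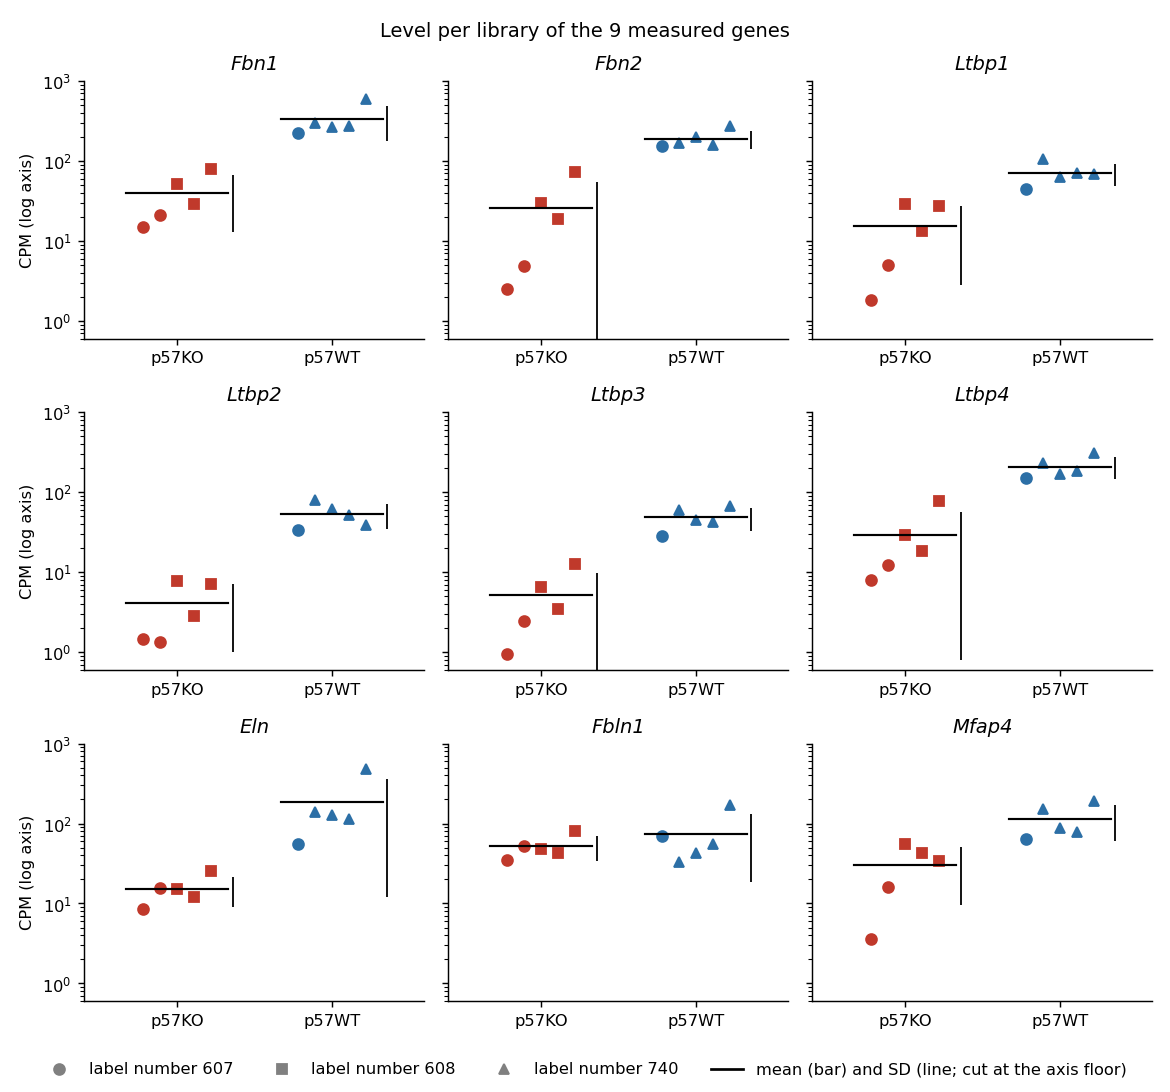
CPM of each of the 9 genes (log axis) in p57KO and p57WT libraries. Each point is 1 library, its shape gives the number in its label, horizontal bars are means and vertical lines the SD (n = 5 each). For all genes but Fbln1 the p57KO points lie below the p57WT points, and p57KO 1 and p57KO 2 (circles) are the lowest for most.

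Fbn1, the fibrillin that forms the backbone of microfibrils and is mutated in human Marfan syndrome, lies on chromosome 2 (125300594 to 125507993, minus strand, GRCm38, ENSMUSG00000027204). The gene had 15.1, 21.1, 52.2, 29.2 and 80.3 CPM in libraries p57KO 1 to 5, against 221, 301, 263, 275 and 603 CPM in libraries p57WT 1 to 5. The highest p57KO library was thus below the lowest p57WT library. The means were 39.6 ± 26.8 CPM over p57KO and 333 ± 154 CPM over p57WT libraries (SD, n = 5 each), with a log2 fold change of -3.07 (SE 0.47, edgeR adjusted p = 0.00069). Fbn2, a fibrillin made mainly in fetal tissue, lies on chromosome 18 (58008623 to 58210487, minus strand, ENSMUSG00000024598). Its CPM values were 2.49, 4.87, 30, 18.9 and 72.9 in libraries p57KO 1 to 5, against 152, 170, 198, 159 and 274 in libraries p57WT 1 to 5. Among p57KO libraries those of 607 were the lowest and p57KO 5 the highest. The means were 25.8 ± 28.6 CPM over p57KO and 191 ± 49.7 CPM over p57WT libraries (SD, n = 5 each), with a log2 fold change of -2.89 (SE 0.7, edgeR adjusted p = 0.00717). Without p57KO 5 it was -3.73 (edgeR adjusted p = 0.00108).

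All 4 LTBP genes fell, although Ltbp1 was at 0.05 on the log2 scale when libraries were scaled to fibroblast markers. Ltbp2, whose product does not bind latent TGF-beta and associates with fibrillin microfibrils, lies on chromosome 12 (84783212 to 84876532, minus strand, ENSMUSG00000002020). The gene had 1.46, 1.36, 7.7, 2.84 and 7.05 CPM in libraries p57KO 1 to 5, against 34.1, 79.6, 60.9, 52.7 and 38.6 CPM in libraries p57WT 1 to 5. The groups were far apart, with 424 counts in p57KO libraries together and 3547 in p57WT libraries. The means were 4.08 ± 3.07 CPM over p57KO and 53.2 ± 18.3 CPM over p57WT libraries (SD, n = 5 each), with a log2 fold change of -3.7 (SE 0.51, edgeR adjusted p = 0.000436). Ltbp3, which helps secrete latent TGF-beta and is known from the skeleton, lies on chromosome 19 (5740904 to 5758532, plus strand, ENSMUSG00000024940). Its CPM values were 0.946, 2.46, 6.51, 3.45 and 12.8 in libraries p57KO 1 to 5, against 28.8, 60.4, 44.7, 41.9 and 67.6 in libraries p57WT 1 to 5. No p57KO library reached the lowest p57WT value. This was a log2 fold change of -3.22 (SE 0.55, edgeR adjusted p = 0.00124), and without p57KO 5 it was -3.82 (edgeR adjusted p = 0.000287). Exons of Mfap4 overlap those of Mapk7 on the other strand, and those of Fbn2 overlap Gm26507. The strand setting of the counting was not given, so reads of such pairs cannot be told apart.

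Ltbp4, whose product binds elastin assembly factors and guides tropoelastin onto microfibrils, lies on chromosome 7 (27305136 to 27337692, minus strand, ENSMUSG00000040488). The gene had 7.91, 12.3, 29.4, 18.2 and 77.5 CPM in libraries p57KO 1 to 5, against 152, 233, 168, 186 and 309 CPM in libraries p57WT 1 to 5. The p57KO 5 library stood above the other p57KO libraries and below every p57WT library. The log2 fold change was -2.85 (SE 0.54, edgeR adjusted p = 0.00196), and without p57KO 5 it was -3.61 (edgeR adjusted p = 0.000173). Ltbp1, the LTBP in which binding of latent TGF-beta was first described, lies on chromosome 17 (75005568 to 75392512, plus strand, ENSMUSG00000001870). Its CPM values were 1.81, 5.04, 28.7, 13.3 and 27.2 in libraries p57KO 1 to 5, against 44.8, 106, 62.4, 70.1 and 69.8 in libraries p57WT 1 to 5. Every p57KO library was below every p57WT library. Ltbp1 had a log2 fold change of -2.21 (SE 0.58, edgeR adjusted p = 0.0108).

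Eln, the tropoelastin gene, lies on chromosome 5 (134702593 to 134747323, minus strand, ENSMUSG00000029675). The gene had 8.51, 15.6, 15.3, 12 and 25.5 CPM in libraries p57KO 1 to 5, against 54.9, 140, 126, 114 and 487 CPM in libraries p57WT 1 to 5. The p57KO values were close together, while p57WT 5 was far above the other p57WT libraries. The means were 15.4 ± 6.35 CPM over p57KO and 184 ± 172 CPM over p57WT libraries (SD, n = 5 each), with a log2 fold change of -3.59 (SE 0.54, edgeR adjusted p = 0.00068). Without p57WT 5 it was -2.82 (edgeR adjusted p = 0.00101). Mfap4, which encodes a microfibril-associated glycoprotein that binds fibrillin and elastin, lies on chromosome 11 (61485431 to 61488900, plus strand, ENSMUSG00000042436). Its CPM values were 3.61, 16, 55.5, 43.1 and 34.2 in libraries p57KO 1 to 5, against 64.8, 151, 88.5, 78.6 and 190 in libraries p57WT 1 to 5. The highest p57KO library came close to the lowest p57WT library. Mfap4 had a log2 fold change of -1.91 (SE 0.56, edgeR adjusted p = 0.0176).

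Fbln1, which encodes fibulin-1, a glycoprotein of basement membranes and of the elastic fibre core, lies on chromosome 15 (85205949 to 85286535, plus strand, ENSMUSG00000006369). The gene had 35.2, 51.9, 48.5, 43 and 81.1 CPM in libraries p57KO 1 to 5, against 69.1, 33, 43.1, 56 and 172 CPM in libraries p57WT 1 to 5. The groups overlapped through most of their range, and the highest value was that of p57WT 5. The means were 51.9 ± 17.5 CPM over p57KO and 74.7 ± 56.2 CPM over p57WT libraries (SD, n = 5 each). The log2 fold change was -0.52 (95% limits -1.4 to 0.35, edgeR adjusted p = 0.326), and without p57WT 5 its sign turned (0.05, edgeR adjusted p = 0.924). The authors' deposited table likewise called 8 of the 9 genes lower at an adjusted p below 0.05, where 17.0% of its genes were called lower, and gave Fbln1 a log2 fold change of -0.49 with an adjusted p of 0.394.

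A ratio of 2 genes within 1 library does not depend on how libraries are scaled. All 36 pairs of the 9 genes were compared in this way after the values had been seen, with a two-sided exact permutation test of 5 against 5 libraries whose smallest possible p is 0.00794. After adjustment over the 36 pairs, 7 passed, and 6 of these 7 were among the 8 pairs that hold Fbln1. These 6 pairs share Fbln1 and reuse values in which Fbln1 did not pass and its partner was lower. They are thus a description and no separate test of Fbln1. The share of all genes with such ratios to these partners was not computed. Relative to Fbn1, Fbln1 counts were between 0.928 and 2.46 in p57KO libraries and between 0.11 and 0.312 in p57WT libraries. The log2 ratio of Fbn1 over Fbln1 differed by -2.91 between genotypes (exact permutation p = 0.00794, adjusted p = 0.0408). Relative to Eln, Fbln1 counts were between 3.17 and 4.12 in p57KO and between 0.237 and 1.26 in p57WT, a narrow band in p57KO libraries. Its ratios to Fbn2, Ltbp2, Ltbp3 and Ltbp4 also passed, each with the adjusted p of 0.0408 and no overlap between genotypes. Those to Ltbp1 (exact permutation adjusted p = 0.0635) and Mfap4 (exact permutation adjusted p = 0.102) did not.

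**Figure D2:**
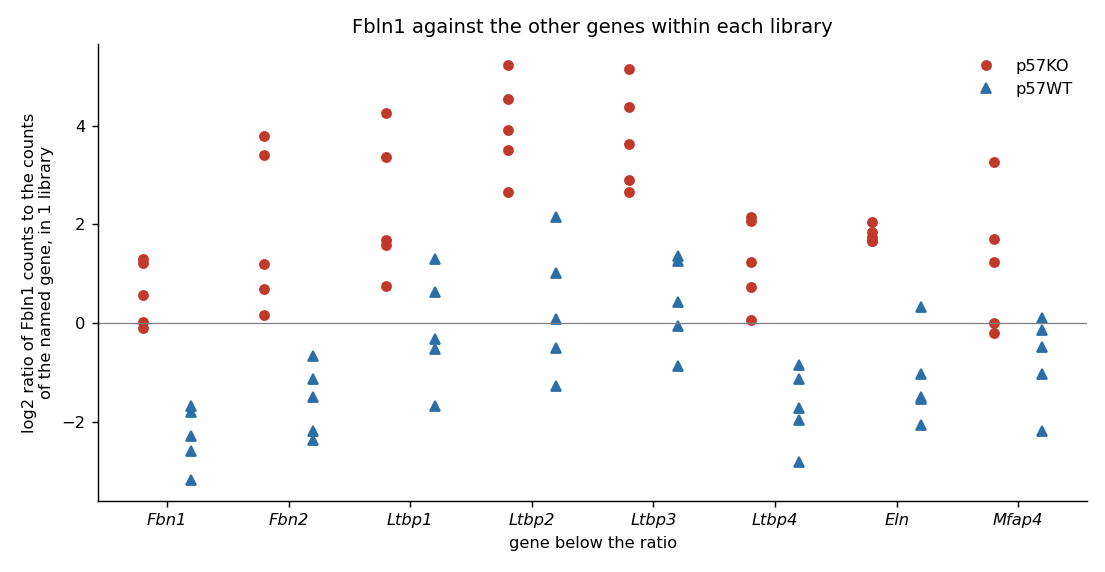
Log2 ratio of Fbln1 counts to the counts of each of the other 8 genes, with 1 point per library, p57KO left of p57WT for each gene. Above Fbn1, Fbn2, Ltbp2, Ltbp3, Ltbp4 and Eln the p57KO and p57WT points do not overlap; above Ltbp1 and Mfap4 they do.

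Among the other genes the only pair to pass was Ltbp1 over Ltbp3, with a mean log2 ratio of 1.42 in p57KO and 0.54 in p57WT libraries (difference 0.88, exact permutation adjusted p = 0.0408 over 36 pairs). Its unadjusted p was the smallest possible (exact permutation p = 0.00794) and tied with the 6 passing pairs that hold Fbln1. The adjusted p over 36 pairs depends on these ties. A further 10 ratios were picked from known roles of the genes, but with earlier results of these data known. Of these, 8 could be formed without Fbln5, and 0 passed in the exact permutation test after adjustment over the 8, although 2 had an unadjusted p below 0.05. The pair of Ltbp3 and Ltbp1 was one of these, with an adjusted p of 0.0635 over the 8. The other was Ltbp2 over Ltbp1 (mean log2 ratio -1.65 in p57KO and -0.42 in p57WT, exact permutation adjusted p = 0.159). The mean log2 ratio of Eln over Fbn1 was -1.19 ± 0.56 in p57KO and -1.15 ± 0.61 in p57WT (SD, n = 5 each), a difference of -0.04 (exact permutation p = 0.929).

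Levels of different genes were compared as RPKM, the CPM per kilobase of merged exons. In p57KO libraries the order was Mfap4 (15.9), Fbln1 (11.9), Ltbp4 (4.5), Fbn1 (3.26), Fbn2 (1.96), Eln (1.9), Ltbp1 (1.42), Ltbp3 (0.577) and Ltbp2 (0.499). In p57WT libraries it was Mfap4 (59.6), Ltbp4 (32.4), Fbn1 (27.4), Eln (22.8), Fbln1 (17.1), Fbn2 (14.4), Ltbp1 (6.61), Ltbp2 (6.5) and Ltbp3 (5.37). Fbln1 thus stood in the second place in p57KO and in the fifth in p57WT. Several neighbours did not keep their order in every library. Mfap4 was above Fbln1 in 2 of 5 p57KO libraries, Fbn2 above Eln in 2 of 5, and Ltbp3 above Ltbp2 in 3 of 5. In p57WT, Fbln1 was above Fbn2 in 3 of 5 libraries.

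The makeup of each family was described by shares of summed RPKM. Ltbp4 was the main LTBP transcript, with 64.4 ± 9.23% of the 4 genes in p57KO and 63.5 ± 5.9% in p57WT (SD, n = 5 each). Ltbp1 took 19.6 ± 8.24% in p57KO and 13 ± 2.29% in p57WT, and Ltbp2 took 7.91 ± 2.61% in p57KO and 13.1 ± 3.81% in p57WT (SD, n = 5 each). The Ltbp1 share ranged from 10.1% in p57KO 1 to 30.2% in p57KO 3. In p57KO 1 the shares of Ltbp1, Ltbp2 and Ltbp3 rested on only 21, 17 and 11 counts. Fbn1 made up 70.4 ± 13.7% of the fibrillin sum in p57KO and 64.4 ± 4.44% in p57WT (SD, n = 5 each). Within p57KO it was 86.8% in p57KO 1 and 54.5% in p57KO 5.

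**Figure D3:**
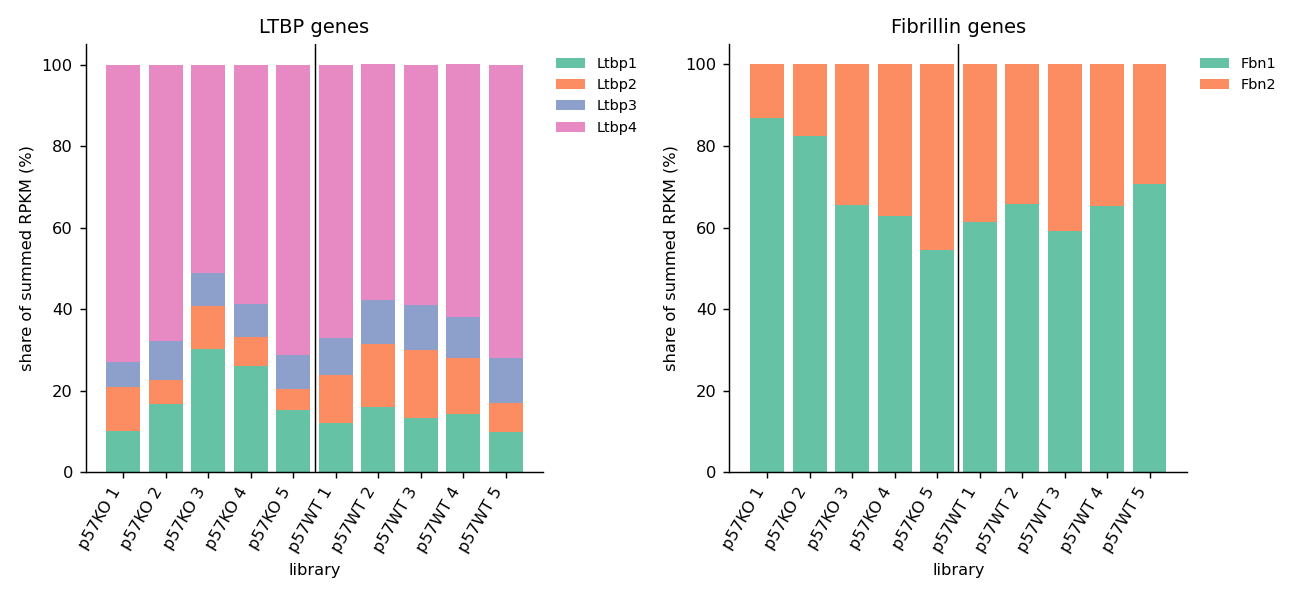
Share of summed RPKM (percent) of the 4 LTBP genes and of the 2 fibrillin genes in each library, p57KO left of the line and p57WT right of it. Ltbp4 holds the largest part of the LTBP bar in every library, and the Fbn2 part is smallest in p57KO 1 and p57KO 2.

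Inside the p57KO group, levels of some of the 9 genes differed with the label number. The p57KO libraries of 607 were lower than those of 608 for 4 of the 9 genes by edgeR, namely Fbn2 (log2 difference -3.43, adjusted p = 0.00791), Ltbp1 (-2.72, adjusted p = 0.0116), Ltbp2 (-2.05, adjusted p = 0.0324) and Mfap4 (-2.16, adjusted p = 0.0482). Over all genes tested 3.67% were called lower in that comparison, which was chosen after the values had been seen. The fibroblast markers summed to 98 and 178 CPM in p57KO 1 and p57KO 2, against 687 to 1220 CPM in p57KO 3 to 5, and their part in this difference was not tested. The other 5 did not pass, namely Fbn1 (-1.57, edgeR adjusted p = 0.0783), Ltbp3 (-2.09, edgeR adjusted p = 0.0505), Ltbp4 (-2.03, edgeR adjusted p = 0.0518), Eln (-0.53, edgeR adjusted p = 0.65) and Fbln1 (-0.4, edgeR adjusted p = 0.736). Within 607, where 2 p57KO libraries meet 1 p57WT library assumed to vary like the others, 7 of the 9 genes were called lower by edgeR, where 4.94% of all genes were called lower and 1.10% higher. The log2 fold change there was -5.35 for Fbn2, -4.6 for Ltbp2, -4.03 for Ltbp3, -3.9 for Ltbp4, -3.68 for Ltbp1, -3.61 for Fbn1 and -2.71 for Mfap4. Eln did not pass there (-2.18, edgeR adjusted p = 0.129). Ribosomal RNA content also ran with genotype, since it was above 1% of counts in 1 p57KO and 4 p57WT libraries. With that class as a term, 7 of the 9 genes were called lower by edgeR, where 10.5% of all genes were. Mfap4 then missed the threshold (-1.99, edgeR adjusted p = 0.0581).

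**Figure D4:**
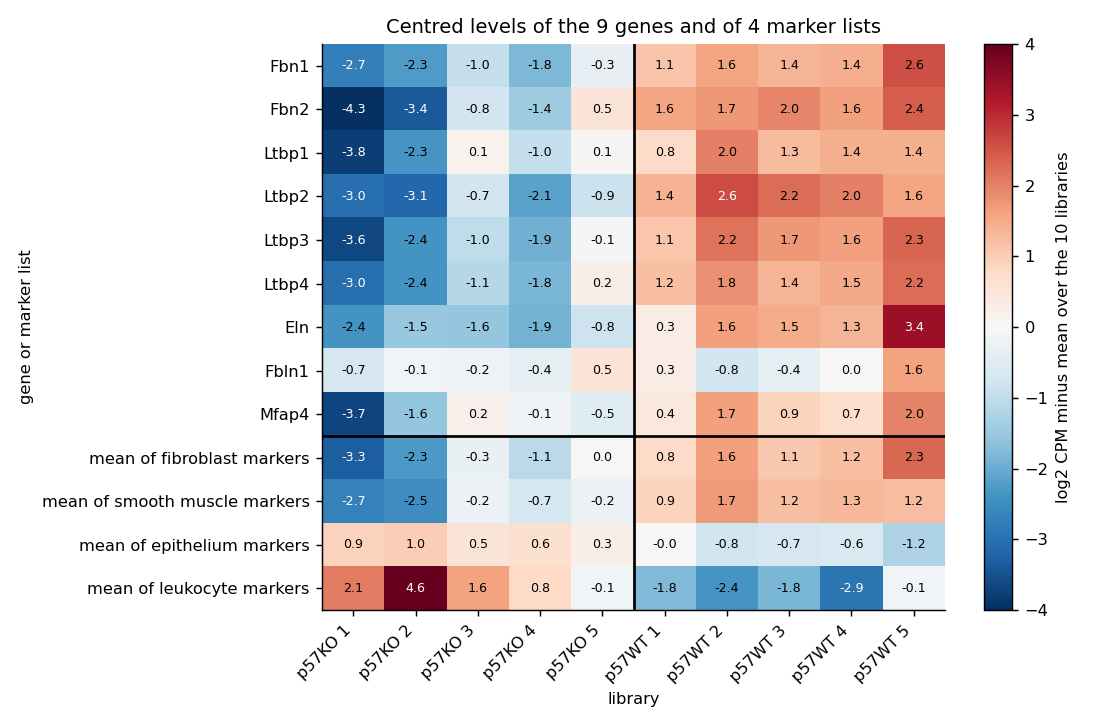
Log2 CPM of the 9 genes and mean log2 level of 4 marker lists, each minus its mean over the 10 libraries, p57KO left of the line and p57WT right of it. The rows of fibroblast and smooth muscle markers are lowest in p57KO 1 and p57KO 2, as are most of the 9 genes, while Fbln1 does not follow that order.

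The fibroblast and smooth muscle markers moved with these genes, as the heat map of centred levels shows. With each library scaled to its 7 fibroblast markers, 0 of the 9 genes were called lower and 1, Fbln1, was called higher (log2 fold change 2.77, edgeR adjusted p = 0.00196), where 0.162% of all genes were called lower and 87.9% higher and their median log2 fold change was 3.48. On that scale Ltbp2 stood at -1.2 (edgeR adjusted p = 0.125), Fbn1 at -0.28 (edgeR adjusted p = 0.698) and Eln at -0.22 (edgeR adjusted p = 0.773). Ltbp1 (0.05) and Mfap4 (0.68) were above 0 there without passing. Scaled to the 10 smooth muscle markers, Ltbp2 was the only one called lower (-1.45, edgeR adjusted p = 0.0176) and Fbln1 the only one called higher (2.21, edgeR adjusted p = 0.00535), where 0.329% of all genes were called lower and 85.5% higher and their median was 3.06. Scaled to the 12 epithelial markers, all 9 genes were called lower, as were 62.3% of all genes, whose median was -1.29. Of the fibroblast markers analysed, all but Twist1 and Tcf21 are matrix genes themselves (Lum, Col1a1, Col1a2, Col3a1 and Col6a3). Scaling to them thus sets the 9 genes mostly against other matrix genes.

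Other genes of elastic fibres and of TGF-beta storage were followed in 6 lists. Under TMM scaling, used below unless stated, the shares of all genes called, 17.2% lower and 19.3% higher, again give the background. Of their 54 tested genes 5 rose and 30 fell by edgeR with TMM scaling. With scaling to fibroblast markers 27 were called higher and 0 lower, where 87.9% of all genes were called higher and 0.162% lower. With smooth muscle markers 24 were called higher and 0 lower, where 85.5% of all genes were called higher and 0.329% lower. Of 10 tested genes for other microfibril and elastic fibre components, 7 fell and 0 rose, with a median log2 fold change of -1.72. Efemp2, the gene of fibulin-4, which brings lysyl oxidase to tropoelastin, averaged 20.7 ± 9.78 CPM over p57KO and 84.7 ± 21.8 CPM over p57WT libraries (log2 fold change -2.03, edgeR adjusted p = 0.00137). Emilin1, which encodes a glycoprotein at the elastin and microfibril interface, had a log2 fold change of -2.36, and Fn1, the fibronectin gene, one of -1.79. Hspg2, the perlecan gene, had a log2 fold change of -3.48, or -4.65 without p57KO 5. Mfap2, a microfibril glycoprotein gene, was at -1.38 (edgeR adjusted p = 0.0215), and did not pass without p57KO 2 (-1.28, edgeR adjusted p = 0.0574) or p57WT 5 (-1.16, edgeR adjusted p = 0.0612), nor without p57KO 1 and p57KO 2 together (-0.96, edgeR adjusted p = 0.0516).

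Of 6 tested cross-linking enzyme genes, 4 fell and 0 rose (median -2.15). Lox, the lysyl oxidase gene, averaged 4.22 ± 2.98 CPM over p57KO and 37.1 ± 50.5 CPM over p57WT libraries (SD, n = 5 each). Its log2 fold change was -3.13 (edgeR adjusted p = 0.00932), and -1.78 without p57WT 5 (edgeR adjusted p = 0.0344). Lox did not pass with the ribosomal RNA class as a term (-2.38, edgeR adjusted p = 0.12) or within 607 (-2.2, edgeR adjusted p = 0.384). Loxl2, a lysyl oxidase relative, stood at -2.67 and Bmp1, the protease that activates lysyl oxidase, at -2.06. Of 10 ADAMTS and ADAMTS-like genes, relatives of proteases several of which bind fibrillin, 8 fell and 0 rose (median -2.14). The log2 fold change was -2.79 for Adamtsl1, -2.46 for Adamts17 and -1.97 for Adamts6.

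Of 14 tested genes for TGF-beta ligands, activators and receptors, 2 rose and 7 fell (median -0.98). Over all genes tested, 19.3% were called higher and 17.2% lower. The ligand genes Tgfb3 and Tgfb2 had log2 fold changes of -2.79 (edgeR adjusted p = 0.00201) and -1.99 (edgeR adjusted p = 0.0168), and Tgfb2 did not pass without p57WT 5 (-1.3, edgeR adjusted p = 0.0647) or with the ribosomal RNA class (-1.31, edgeR adjusted p = 0.179). Tgfb1 averaged 4.69 ± 3.07 CPM over p57KO and 5.86 ± 3.93 CPM over p57WT libraries (log2 fold change -0.32, edgeR adjusted p = 0.693). Itgb3, an integrin subunit gene, had a log2 fold change of -3.14 and Tgfbr2, the type II receptor gene, one of -1.32. Itgb6, the epithelial integrin subunit that releases TGF-beta from its latent complex, averaged 30.5 ± 9.87 CPM over p57KO and 8.79 ± 3.11 CPM over p57WT libraries (log2 fold change 1.8, edgeR adjusted p = 0.00151). The epithelial markers had a median log2 fold change of 1.39, and Itgb6 did not pass when scaled to them (0.57, edgeR adjusted p = 0.179) or within 607 (0.83, edgeR adjusted p = 0.404). Nrros, which anchors latent TGF-beta on myeloid cells, rose by 2.68 on the log2 scale (edgeR adjusted p = 0.018), but without p57KO 2 its value of 1.5 missed the threshold (edgeR adjusted p = 0.0718), as it did with the ribosomal RNA class (1.9, edgeR adjusted p = 0.228) and scaled to epithelial markers (1.1, edgeR adjusted p = 0.188). The leukocyte markers, 6 of 7 analysed, summed to between 185 and 6550 CPM in p57KO and between 27.8 and 118 CPM in p57WT.

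Of 9 TGF-beta target genes, 1 rose and 3 fell (median -0.66). Ccn2, the connective tissue growth factor gene, fell by 2.48 on the log2 scale. Postn, the periostin gene, was at -2.01 (edgeR adjusted p = 0.011), and at -1.34 without p57WT 5 (edgeR adjusted p = 0.0322). It did not pass with the ribosomal RNA class (-1.97, edgeR adjusted p = 0.0657) or within 607 (-1.89, edgeR adjusted p = 0.174). Without p57KO 1 and p57KO 2, the libraries with the lowest fibroblast markers, 8 of the 9 genes were called lower and 0 higher by edgeR, where 19.1% of all genes were called lower and 20.6% higher. The counts lower were then 5 of 10 for fibre components, 4 of 6 for cross-linking enzymes and 8 of 9 for ADAMTS and ADAMTS-like genes. They were 8 of 14 for TGF-beta genes, with 1 higher, and 4 of 9 for target genes. Within 607, which holds 1 p57WT library, the median log2 fold changes of these 5 lists were -1.35, -2.27, -2.47, -0.98 and -0.29, in the same order. The median over all genes tested was 0.15 there. Most genes of these lists did not pass within 607, among them Fn1, Mfap2, Bmp1, Tgfb2, Tgfb3, Tgfbr2, Nrros, Ccn2 and the other target genes.

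**Figure D5:**
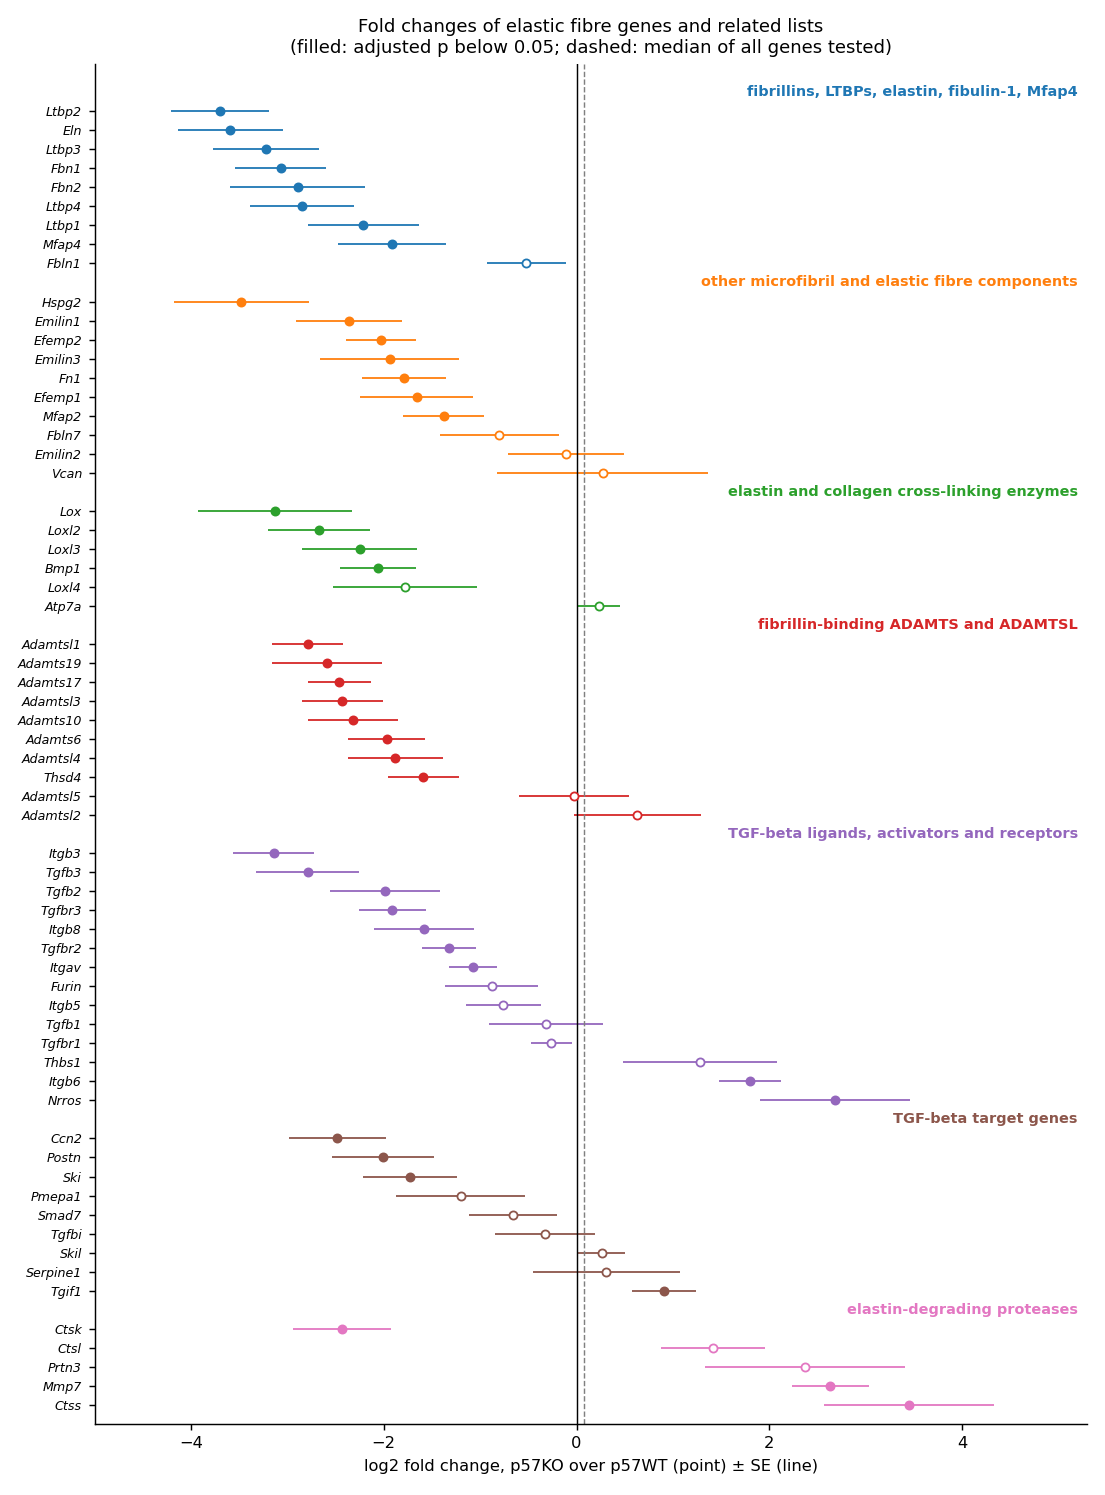
Log2 fold change of p57KO over p57WT under TMM scaling with its SE for the 9 genes and the tested genes of the 6 lists, filled where the edgeR adjusted p is below 0.05. The 9 genes lie between -3.7 and -0.52, the ADAMTS and cross-linking lists lie mostly below 0, and the elastin-degrading proteases lie mostly above 0.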

How the data were processed

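RNA was sequenced from 10 libraries of Hopx-GFP sorted cells, 5 p57KO and 5 p57WT. The authors deposited whole-number counts per gene, per the file headers, and a signal value that was the count divided by 1 size factor per library. They also deposited, per the file headers, log2 fold changes with standard errors, a Wald score, p-values and adjusted p-values of their own comparison. Among the tools in the submitters' processing notes are DESeq2 1.22.2, HTSeq 1.0, Cufflinks 2.2.1 and the aligner STAR 2.6.1d, and the build is GRCm38. Neither the strand setting nor the annotation is given in the sources used here. The smallest mean normalized count in the table was 3.004, so genes below that level were not analysed here. Coordinates and exon lengths came from GENCODE M21 on GRCm38, which matched 20558 of 20579 genes.

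Counts were tested with edgeR 4.0.16 in R 4.3.3 by the quasi-likelihood test, with TMM scaling, the tool's expression filter (3869 genes removed), genotype as the only term and Benjamini-Hochberg adjustment over 16710 genes. All 9 members passed the filter. A log2 fold change is p57KO over p57WT. Ratios within a library used counts plus 0.5. Alternatives were DESeq2 1.42.0, limma 3.58.1 (voom), other scalings, no filter, left-out libraries, the label number, the replicate number or the ribosomal RNA class (above or below 1% of counts) as a term. The script was tested on simulated data. The members, lists and ratios were chosen with earlier results of these data known. Named genes are the members, up to 4 genes of each list by smallest p and others of it that passed, and the 2 nearest profiles of each member with at least 5 CPM; not all are printed. Tgfb1, outside this rule, was named after its values were seen. No 2 libraries of a genotype agreed within sampling noise (chi-square per degree of freedom 8.7 or more). The spread between libraries thus exceeded counting error, and totals were between 8037887 and 26809231 counts per library. No molecular identifiers are mentioned, so reads may repeat a molecule.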

Additional observations from a re-analysis of the deposited data

Results flagged for a closer look

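In p57WT 5 the levels of 3 of the 9 genes stood apart from the other p57WT libraries, by a test of the gap to the nearest library against the range of the group. Fbn1 was at 603 CPM there and between 221 and 301 CPM in the other p57WT libraries. Eln was at 487 CPM, against 54.9 to 140 CPM. Fbln1 was at 172 CPM, against 33 to 69.1 CPM. Of 18 groups examined (9 genes in 2 genotypes) 3 were marked, all in 1 library, and chance marks about 1 in 20. The fibroblast markers summed to 8450 CPM in p57WT 5 and to between 2490 and 5560 CPM in the other p57WT libraries, and their part in these values was not tested.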

How the results depend on the processing

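Outside the scalings to cell type markers, 20 alternatives were computed for each of the 8 genes called lower, 2 of which (the label number as a term and the contrast within 607) give the same estimate. All 8 had a log2 fold change below 0 in all 20. Of the 8, 6 passed in all 20. Eln passed in 18, and was at -2.18 with the label number as a term and within 607. Mfap4 passed in 19, and was at -1.99 with the ribosomal RNA class as a term (edgeR adjusted p = 0.0581). It passed only narrowly without p57KO 2 (edgeR adjusted p = 0.0497) and without p57WT 5 (edgeR adjusted p = 0.0484). Fbln1 was between -0.72 and 0.05 when 1 library was left out, and at 0.18 with the ribosomal RNA class. Over the 20 alternatives between 4.94% and 20.9% of all genes were called lower. Without p57KO 1 and p57KO 2 the values of Fbn2, Ltbp1 and Mfap4 were -2.2, -1.56 and -1.3, and all 3 passed. Fbn2 was at -3.73 with limma voom.

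The count of all genes called was 6107, and was 1009 with the label number and within 607, 2959 with the ribosomal RNA class, and 10852, 14717 and 14334 when libraries were scaled to epithelial, fibroblast and smooth muscle markers. Of pathway list members 35 were called, and 14 with the label number and within 607. Of the 9 genes 8 were called, 1 with fibroblast scaling and 2 with smooth muscle scaling. With epithelial scaling Fbln1 was at -1.98 and passed. With fibroblast scaling the values were -0.28 for Fbn1, -0.81 for Fbn2, 0.05 for Ltbp1, -1.2 for Ltbp2, -0.79 for Ltbp3, -0.34 for Ltbp4, -0.22 for Eln, 2.77 for Fbln1 and 0.68 for Mfap4. With smooth muscle scaling they were -0.72 for Fbn1, -1.03 for Fbn2, -0.14 for Ltbp1, -1.03 for Ltbp3, -0.64 for Ltbp4, -0.84 for Eln, 2.21 for Fbln1 and 0.32 for Mfap4. Only Ltbp1, Fbln1 and Mfap4 changed sign with fibroblast scaling, and only Fbln1 and Mfap4 with smooth muscle scaling. The median over all genes was then 3.48 and 3.06, so these values are set against the markers and not against other genes.

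Other genes named also turned sign. With fibroblast scaling Tgfb1 was at 3.46, Mfap2 1.57, Efemp2 0.77, Emilin1 0.17, Fn1 1.77, Lox 0.3, Loxl2 0.29, Bmp1 1, Adamts6 0.83, Adamts17 0.84, Adamtsl1 0.14, Tgfb2 1, Tgfb3 0.79, Itgb3 0.03, Tgfbr2 2.16, Ccn2 0.55, Postn 1.04 and Ctsk 0.85. With smooth muscle scaling Tgfb1 was at 2.89, Mfap2 1.19, Efemp2 0.5, Fn1 1.52, Bmp1 0.54, Adamts6 0.44, Adamts17 0.36, Tgfb2 0.55, Tgfb3 0.34, Tgfbr2 1.62, Ccn2 0.34, Postn 0.43 and Ctsk 0.41. Tgfb1 ranged from -0.59 to 0.13 when 1 library was left out (0.13 without p57WT 5) and was at 0.25 with the ribosomal RNA class. The ratios picked from known roles that passed numbered between 0 and 2 when 1 library was left out, with 2 without p57KO 1. The log2 difference of Eln over Fbn1 then ranged from -0.26 to 0.17, and was 0.1, 0.07 and 0.17 without p57KO 3, p57KO 5 and p57WT 5.

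The replicate numbers of the titles were not shown to pair libraries: the deviations of same-numbered libraries correlated between -0.13 and 0.2 over genes, and 3 of 10 libraries correlated best with their own number. With the replicate number as a block, 5804 genes and 8 of the 9 genes were called, and 0 ratios passed. The 2 picked ratios with Fbln5 were not run. The label number and genotype cannot be told apart outside 607.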

Other observations

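Proteases that can cut elastin were also listed. Of 5 tested genes 2 rose and 1 fell, with a median log2 fold change of 2.37, where 19.3% of all genes were called higher. Mmp7, a metalloproteinase gene of Paneth cells, averaged 28.7 ± 16.2 CPM over p57KO and 4.65 ± 1.49 CPM over p57WT libraries (SD, n = 5 each; log2 fold change 2.63, edgeR adjusted p = 0.000699). Ctss, a cathepsin gene of macrophages, averaged 288 ± 375 CPM over p57KO and 26.5 ± 22.3 CPM over p57WT libraries (SD, n = 5 each). Its log2 fold change was 3.45 (edgeR adjusted p = 0.00929), 2.26 without p57KO 2 and 4.11 without p57WT 5, and it did not pass without p57KO 1 and p57KO 2 (1.11, edgeR adjusted p = 0.1). It also did not pass with the replicate number as a block (2.6, edgeR adjusted p = 0.0614), with the ribosomal RNA class (2.58, edgeR adjusted p = 0.366) or scaled to epithelial markers (1.62, edgeR adjusted p = 0.0771). The leukocyte markers summed to 6550 CPM in p57KO 2 and to between 185 and 946 CPM in the other p57KO libraries, and their part in this value was not tested. Ctsk, the cathepsin K gene of osteoclasts and fibroblasts, fell by 2.43 on the log2 scale (edgeR adjusted p = 0.00348), and did not pass within 607 (-1.67, edgeR adjusted p = 0.309).

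For each of the 9 genes, the tested genes outside these 9 with the most similar profile were found, as a description. Similarity was the root mean square difference of centred log2 CPM over the 10 libraries. Among the 9 genes themselves the smallest differences were 0.26 between Fbn1 and Ltbp4 and 0.28 between Ltbp3 and Ltbp4. Col5a1, a fibrillar collagen gene, was nearest to both Fbn1 (0.18) and Ltbp4 (0.16) and second nearest to Ltbp3 (0.3). Jph2, a junctophilin gene of muscle, was nearest to Fbn2 (0.22), Cdh13, a cadherin gene, to Ltbp1 (0.13) and Lama5, a laminin gene, to Ltbp2 (0.32). Adgra2, an adhesion receptor gene, was nearest to Ltbp3 (0.26) and Slc38a4, an amino acid transporter gene, to Mfap4 (0.23). The nearest to Eln was Htra3, a serine protease gene, at 0.44. Fbln1 was nearest to Arap1 (0.34) and Entpd2 (0.35). Neither of these passed in edgeR (adjusted p = 0.28 and 0.878).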
